A study of Mus musculus with 4 samples.

Results

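The nuclear genes that encode the respiratory chain, the ATP synthase and the mitochondrial ribosome were examined for dimethylation of lysine 79 of histone H3 (H3K79me2) in BMDCs, dendritic cells grown in culture from the bone marrow of C57BL/6J mice. Members were chosen by symbol alone: protein-coding genes of the RefSeq GRCm38 table named as subunits of complex I (Nduf followed by a, b, c, s or v and a digit), complex II (Sdh), complex III (Uqcr), complex IV (Cox4 to Cox8) or complex V (Atp5), or as proteins of the large (Mrpl) or small (Mrps) mitoribosomal subunit. This gave 165 of 21900 protein-coding genes, 87 of the respiratory complexes and 78 of the mitochondrial ribosome. The study mapped the mark by ChIP-seq, in which chromatin bound by an antibody is sequenced, in BMDCs given PBS and in BMDCs given lysine, an essential amino acid, at 18 mM for 6 h. No time is stated for PBS, and the labels name no genetic change in either group. Of the 4 samples, 1 per condition was immunoprecipitated and 1 was input, and the values below come from the broad peaks called in the 2 immunoprecipitated ones. Without replicates there is no error to hold a difference against, so no test was made and each value describes these libraries.

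Oxidative phosphorylation works as a relay. Complexes I and II pass electrons from NADH and succinate to ubiquinone, complex III passes them on to cytochrome c, and complex IV gives them to oxygen, while the ATP synthase (complex V) uses the proton gradient to make ATP. A small set of subunits is encoded and translated inside the mitochondrion, on ribosomes whose proteins all come from nuclear genes, so both gene sets have to be transcribed in the nucleus. H3K79me2, made by the methyltransferase Dot1l, lies over transcribed genes and is usually densest in the part of the gene just after the start. In dendritic cells the balance between mitochondrial respiration and glycolysis shifts on activation.

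The whole lists differed in size. The PBS list held 11926 peaks over 6.78 Mb and the lysine list 9805 peaks over 5.40 Mb, the lowest −log10 q being 1.37 and 1.32. No read totals come with the lists, so the depth is unknown, and a gene without a called peak can carry the mark below the threshold. Less mark per cell and fewer cells carrying it cannot be told apart in such pooled chromatin. Among 20 dendritic cell markers, 11 carried a PBS peak and 9 a lysine peak, 7 of the 13 with a peak in either being shorter in lysine and 6 longer. In total 8898 bp of these markers lay under PBS peaks and 5361 bp under lysine peaks, a ratio of 0.602 against 0.796 over all genes. By at least 250 bp 5 of the 13 with a peak were shorter and 1 longer. Among all genes with a peak in either library, 25.2% were shorter and 14% longer by that margin. H2-Ab1 (2442 and 0 bp), Itgax (935 and 431 bp) and Cd86 (2478 and 1081 bp) were among the shorter. Cd74 (900 and 2134 bp) and Relb (811 and 995 bp) were among the longer. H2-Aa, Ccr7, Irf4, Batf3, Fscn1, Clec9a and Cd209a had no peak in either list. Of 8 macrophage markers 6 carried a PBS peak and 2 a lysine peak (2406 and 1482 bp in total), with Adgre1 and Marco at 0 in both. Of 6 neutrophil markers 1 and 0 did, and of the markers of T and NK cells (6 genes) and of B cells (4 genes) none did. Of 8 genes listed as silent 0 carried a PBS peak and 1 a lysine peak, Pax6 (0 and 275 bp), which overlaps Elp4. The part of other cells in the results was not tested.

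In each library taken singly, more respiratory and mitoribosomal genes carried a peak than did not. Covered length counts the bp of a gene body, from end to end, that lie under broad peaks. In PBS 97 of the 165 genes had covered length above 0 (58.8%, 95% Clopper-Pearson interval 50.9 to 66.4), and in lysine 90 had (54.5%, 46.6 to 62.3). The shares over all protein-coding genes were 34.0% and 31.4%. The intervals cover counting error only. In 75 genes both lists had a peak (45.5%, against 26.7% of all genes), in 22 PBS alone, in 15 lysine alone and in 53 neither. PBS alone thus held 13.3% of these genes, against 7.32% of all genes, and lysine alone 9.09% against 4.68%. Of the genes with a PBS peak 77.3% also had one in lysine (78.5% over all genes), and of those with a lysine peak 83.3% also had one in PBS (85.1%).

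The covered stretches were short. Only 11 members in PBS and 9 in lysine reached 500 bp, the length at which a gene is called marked here, which is 6.67% and 5.45% against 11.4% and 9.02% of all protein-coding genes. These shares are not matched for gene length, and matched ones are given below. The genes just inside and just outside the limit of 500 bp in PBS were Mrpl22 with 515 bp, and Mrpl1 with 487 bp and Mrps27 with 486 bp. Among members with a peak the median covered length was 216 bp in PBS and 205 bp in lysine, compared with 353 and 324 bp over all genes with a peak. A peak on a member was about as wide as any other, with medians of 458 bp in PBS against 445 bp in lysine (456 and 450 bp over the lists). A median of 44.8% of the width of a PBS peak and of 45.0% of a lysine peak fell inside the member's body, and the remainder lay outside it. Which members reach 500 bp thus depends in part on the gene model. In Atp5d, Cox5a, Mrpl45, Mrpl18, Mrpl14 and Mrpl22 the body begins upstream of the RefSeq promoter start, and the PBS peak over that start counted in full. The PBS peaks of Atp5b and Atp5g1, of higher −log10 q, counted for 187 and 199 bp. Peaks of 1 kb or more made up 6 of 97 PBS peaks and 2 of 89 lysine peaks (6.19% and 2.25%, against 9.89% and 8.52% of the whole lists). Within their lists the peaks on members were of more than middling strength, with median −log10 q at percentile 65.3 in PBS and 67 in lysine. Fold enrichment and −log10 q are the authors' values for a peak and serve only to rank it within its own list.

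**Figure D1:**
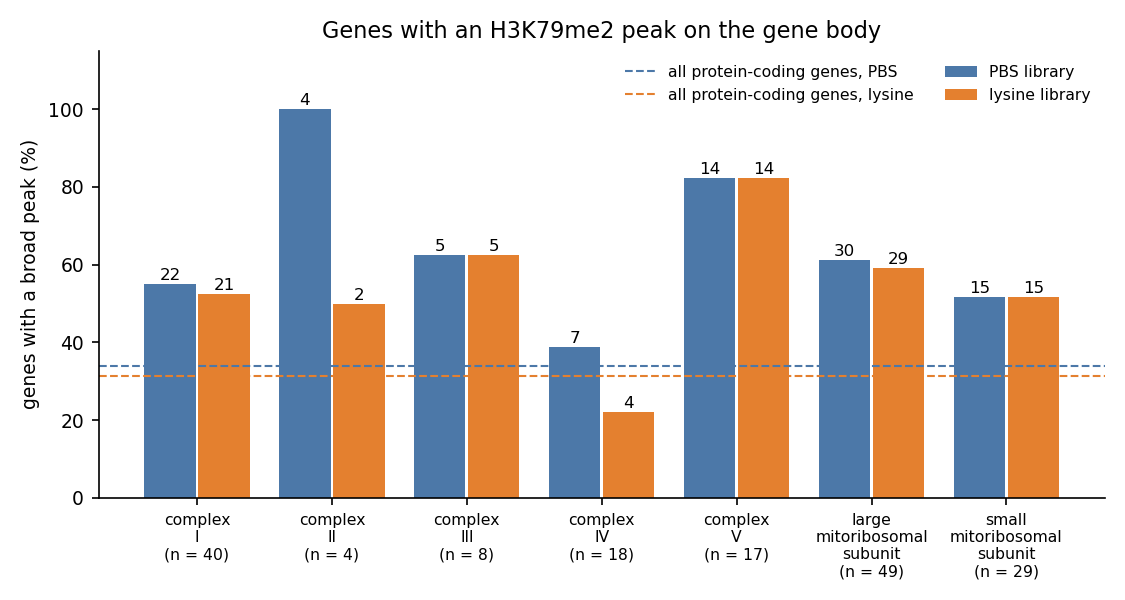
Share of genes with at least 1 bp of the gene body under a broad peak (y axis, percent) for each respiratory complex and each mitoribosomal subunit, in the PBS (blue) and lysine (orange) library, with the number of genes above each bar and the shares over all protein-coding genes as dashed lines. Complex V stands at 82.4% in both libraries and complex IV at 38.9% in PBS and 22.2% in lysine.

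Members are short genes, and in other protein-coding genes peaks were commoner the longer the gene. Members had a median length of 7306 bp against 17146 bp over all genes. Between 2 and 5 kb, 29 of 39 members (74.4%) had a PBS peak and 26 (66.7%) a lysine peak, while other protein-coding genes of that length had one in 22% and 21.3%. Between 5 and 10 kb the members' shares were 60.9% and 56.2% (64 genes) against 30.1% and 27.1%, and between 10 and 20 kb 53.8% and 50% (26 genes) against 36.8% and 34.5%. Between 20 and 50 kb the order turned, with 38.5% and 30.8% of 13 members against 42.1% and 39.2%. Other families of housekeeping genes had higher shares still, without matching for length. Peaks lay on 60 and 59 of 81 cytosolic ribosomal protein genes (74.1% and 72.8%, median length 3175 bp). They lay on 30 and 24 of 40 proteasome genes (75% and 60%, median length 11930 bp). Shares of marked members, by length, stood on both sides of those of other genes. Between 2 and 5 kb they were 2.56% in each library against 3.77% and 3.69%. Between 5 and 10 kb they were 7.81% and 4.69% against 6.69% and 5.73%. Between 10 and 20 kb they were 11.5% in each against 9.91% and 7.42%, and between 20 and 50 kb 7.69% and 0% against 12.9% and 10.8%.

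**Figure D2:**
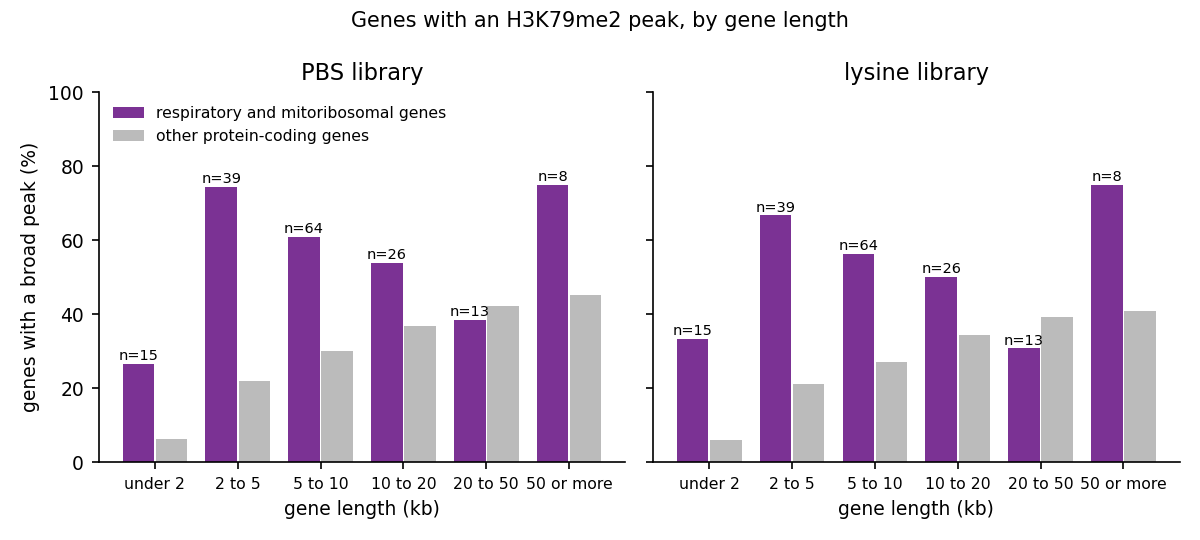
Share of genes with a broad peak (y axis, percent) by gene length in kb (x axis) for the 165 respiratory and mitoribosomal genes (purple, number of genes above the bar) and all other protein-coding genes (grey), in the PBS (left) and lysine (right) library. The purple bars stand above the grey ones in every bin except 20 to 50 kb, where 13 members stand at 38.5% and 30.8%.

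The mark of these genes sat at their starts. RefSeq promoters give a start and a strand for 139 of the 165 members. Of 91 overlaps between a PBS peak and such a gene, 81 covered the start itself (89.0%), as did 73 of 81 in lysine (90.1%). The centre of the peak lay a median of 64 bp upstream of the start in PBS (-64 bp, quartiles -127.5 and 37.25) and 45 bp upstream in lysine (-45 bp, quartiles -110 and 14.5). In bins of 100 bp, coverage was highest from 100 bp upstream to the start, where 57.8% of bases were covered in PBS and 52.4% in lysine, against 24.9% and 23.5% in the other 17353 genes with a start. Coverage dropped quickly inside the gene. From 0 to 500 bp it averaged 22.4% in PBS and 18.5% in lysine (12.4% and 11.2% in other genes), from 500 to 1000 bp 1.39% and 1.73% (2.82% and 2.32%), and from 1000 to 2000 bp 0.193% and 0.0504% (0.907% and 0.690%). Within 1 kb of the start a PBS peak lay at 86 members and a lysine peak at 80 (61.9% and 57.6%, against 29.4% and 27.9% of all 17492 genes with a start).

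Peaks centred more than 1 kb from the start numbered 5 in PBS and 3 in lysine. Mrps27, a protein of the small subunit (chromosome 13, 99344767 to 99415562), had its strongest peak well inside the gene. That peak lay 8575.5 bp from the start in PBS, with a fold of 6.85, and 8514 bp from it in lysine, with a fold of 10.2. At the start of Mrps27, which it shares with Ptcd2, there was a PBS peak of 532 bp and no lysine peak. Mrpl1 (chromosome 5) had an internal peak in both lists, 11907 bp from the start in PBS and 11916.5 bp in lysine. Sdhb had an internal peak of 313 bp in PBS alone, 14254 bp from the start. Mrpl48 had one of 377 bp in lysine alone, 17241 bp from the start.

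**Figure D3:**
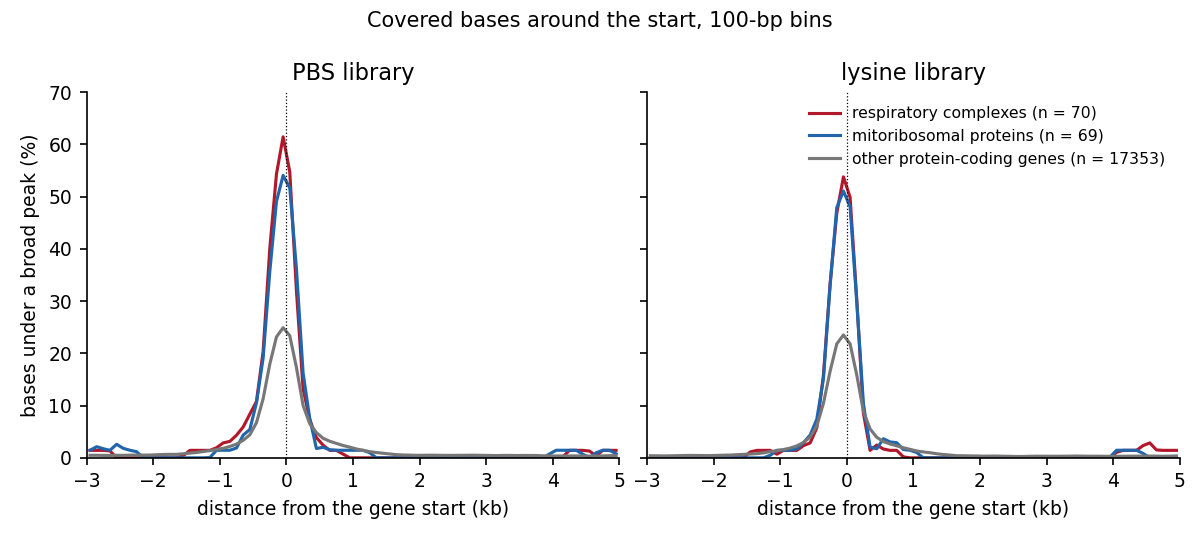
Share of bases under a broad peak (y axis, percent) in 100-bp bins by distance from the gene start (x axis, kb, negative upstream) for genes of the respiratory complexes (red, n = 70), mitoribosomal proteins (blue, n = 69) and other protein-coding genes (grey, n = 17353), in the PBS (left) and lysine (right) library. All curves peak just upstream of the start, at 61.4% and 53.8% for the respiratory genes, and those of both gene sets fall to near 0 within 1 kb.

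The promoters of 6 marked members are shown because the peaks lie over or beside them and because starts of respiratory genes are known targets of a small group of transcription factors. The factors are Nrf1, the Ets factor Gabpa, Yy1, Sp1 and Creb. Each sequence runs from 250 bp before to 50 bp after the start, 5′ to 3′ on the strand of the gene, from RefSeq on GRCm38.p6. Capitals mark matches on either strand to CATGCGC (the core of the Nrf1 motif), CCGGAAG (Ets and Gabpa), AAGATGGC (Yy1), GGGCGG (Sp1), TGACGTCA and the TGACG it contains (Creb). The first is Atp5d, at chr10:80142025-80142324 on the plus strand. Next are Mrpl45 at chr11:97315466-97315765 and Cox5a at chr9:57520982-57521281, both on the plus strand, then Sdhb at chr4:140961021-140961320 on the plus strand. Mrps36 at chr13:100744610-100744909 and Mrpl48 at chr7:100608252-100608551 are on the minus strand.
Atp5d: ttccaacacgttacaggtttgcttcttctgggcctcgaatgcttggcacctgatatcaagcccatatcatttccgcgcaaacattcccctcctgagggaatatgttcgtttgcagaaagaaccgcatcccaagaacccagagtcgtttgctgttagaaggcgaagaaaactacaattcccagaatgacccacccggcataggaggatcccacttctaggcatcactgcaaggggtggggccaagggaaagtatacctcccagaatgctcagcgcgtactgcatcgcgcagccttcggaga
Mrpl45: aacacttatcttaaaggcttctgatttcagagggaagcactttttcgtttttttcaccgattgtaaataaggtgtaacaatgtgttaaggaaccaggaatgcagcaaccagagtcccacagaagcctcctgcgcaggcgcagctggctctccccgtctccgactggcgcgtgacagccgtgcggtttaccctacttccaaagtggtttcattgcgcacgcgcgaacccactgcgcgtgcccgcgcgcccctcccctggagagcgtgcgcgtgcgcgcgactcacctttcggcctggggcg
Cox5a: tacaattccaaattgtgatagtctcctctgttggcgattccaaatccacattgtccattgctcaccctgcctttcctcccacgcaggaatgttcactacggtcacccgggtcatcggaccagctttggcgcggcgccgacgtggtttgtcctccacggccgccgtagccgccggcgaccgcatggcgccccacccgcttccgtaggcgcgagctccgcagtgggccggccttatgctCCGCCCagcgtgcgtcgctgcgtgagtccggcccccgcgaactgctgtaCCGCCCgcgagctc
Sdhb: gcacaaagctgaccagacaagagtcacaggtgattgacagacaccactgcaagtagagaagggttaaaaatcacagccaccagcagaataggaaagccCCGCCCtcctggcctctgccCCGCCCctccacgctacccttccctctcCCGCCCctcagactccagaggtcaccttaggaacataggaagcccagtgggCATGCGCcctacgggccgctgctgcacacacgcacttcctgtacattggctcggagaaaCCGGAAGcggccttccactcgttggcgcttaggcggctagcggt
Mrps36: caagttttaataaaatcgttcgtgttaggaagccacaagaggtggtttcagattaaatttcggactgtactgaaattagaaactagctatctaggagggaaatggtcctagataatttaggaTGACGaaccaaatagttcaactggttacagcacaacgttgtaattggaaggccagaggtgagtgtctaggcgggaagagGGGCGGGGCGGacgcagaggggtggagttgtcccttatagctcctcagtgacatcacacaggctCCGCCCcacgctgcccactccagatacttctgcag
Mrpl48: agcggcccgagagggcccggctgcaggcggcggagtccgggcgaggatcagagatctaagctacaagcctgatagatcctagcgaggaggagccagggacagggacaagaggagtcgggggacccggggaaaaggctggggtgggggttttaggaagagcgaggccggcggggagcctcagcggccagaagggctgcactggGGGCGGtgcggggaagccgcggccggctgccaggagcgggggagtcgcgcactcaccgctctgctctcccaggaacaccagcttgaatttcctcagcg

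All 300 bp of the Mrpl45 and Cox5a promoters were covered in both libraries. The Atp5d promoter was covered over 300 bp in PBS and over 0 bp in lysine, where the peak ended upstream of it. The Sdhb promoter was covered over 227 bp in PBS against 300 bp in lysine, and that of Mrps36 over 104 and 146 bp. No part of the Mrpl48 promoter was covered in either library: the peak of this gene stood inside it, over the start of Rab6a. Matches were found in 4 of these 6 windows. Sdhb held the Nrf1 core, 1 Ets match just after the start and 3 Sp1 matches, Cox5a 2 Sp1 matches, Mrps36 3 Sp1 matches and a TGACG, and Mrpl48 1 Sp1 match.

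Over the 139 members with a promoter, the Nrf1 core stood in 21 promoters (15.1%, against 4.88% of all 17492 promoters). The Ets motif stood in 40 (28.8% against 11.9%), the Yy1 motif in 21 (15.1% against 3.21%), the Creb motif in 6 (4.32% against 2.33%) and the shorter TGACG in 55 (39.6% against 23.8%). Sp1 letters were in 62 (44.6% against 46.3%). The Ets motif was in 16 of 70 respiratory and 24 of 69 mitoribosomal promoters, and the Nrf1 core in 13 and 8. Among members with a peak within 1 kb of the start in either library, 18 of 97 held the Nrf1 core, and among those without, 3 of 42. For the Ets motif the counts went the other way, 26 of 97 and 14 of 42, and for Yy1 12 of 97 and 9 of 42. In other protein-coding genes all of these motifs were commoner in promoters with a peak (Ets 22.9% and 6.19%, Yy1 5.47% and 1.93%), where the median GC content was 62.0% with a peak and 52.3% without. In members it was 59.0% and 55.5%. Base composition thus differed between promoters with and without a peak, and its part in these counts was not tested.

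**Figure D4:**
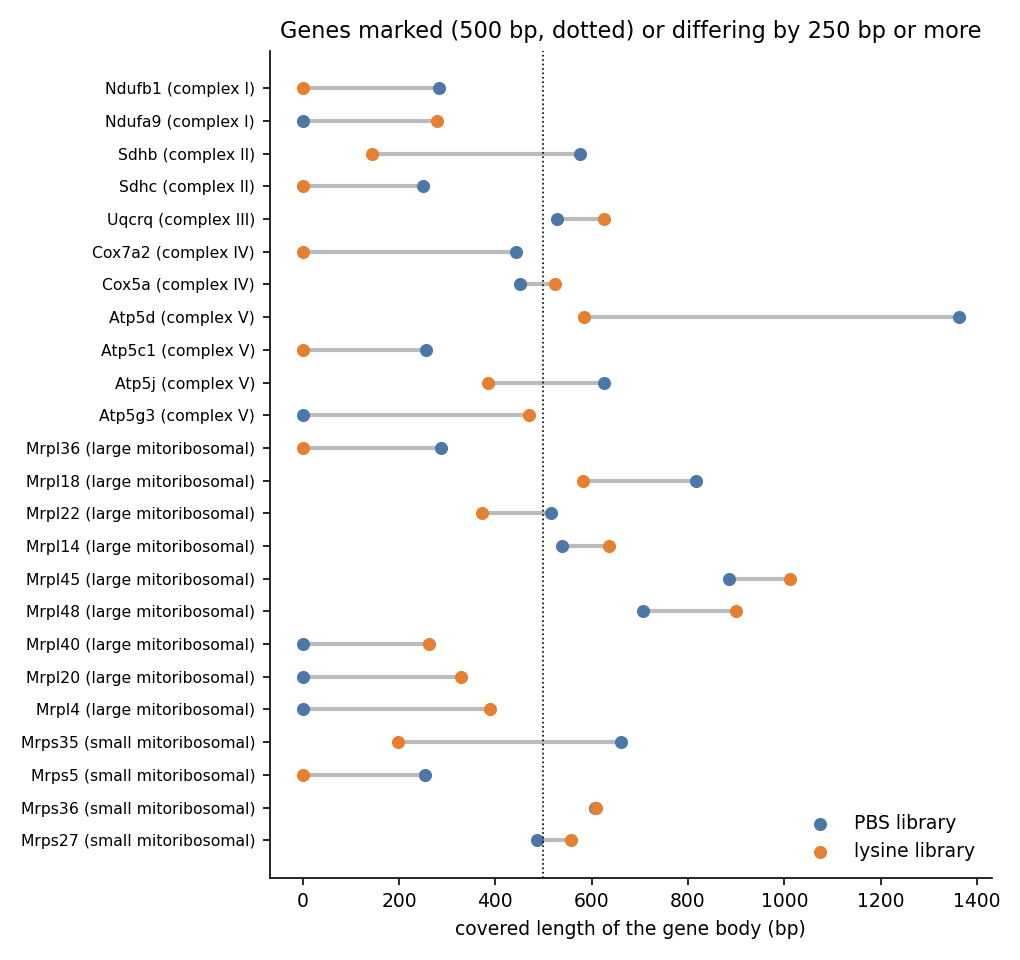
Covered length of the gene body (x axis, bp) in the PBS (blue) and lysine (orange) library for the members that were marked in either library or differed by at least 250 bp, 1 of them not shown, ordered by complex, with 500 bp as a dotted line. Atp5d shows the longest shortfall, from 1362 bp in PBS to 585 bp in lysine, and Atp5g3 the longest gain, from 0 to 470 bp.

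Complex I, the NADH dehydrogenase, had near equal totals of covered length in the libraries when all peaks were counted. Its 40 genes included 22 with a PBS peak and 21 with a lysine peak, 18 of them the same, with 4559 and 4452 bp covered in total, a ratio of 0.977. With peaks held to −log10 q 5 or more the totals were 3040 and 1744 bp, on 13 and 8 genes, a ratio of 0.574. None was marked. Ndufs7, which carries the last iron-sulphur cluster before ubiquinone, had the longest coverage in lysine, with 439 bp against 393 bp in PBS. Ndufs8, another iron-sulphur subunit (227 and 209 bp), and Ndufv1, which binds the flavin that accepts electrons from NADH (202 and 221 bp), had similar covered lengths in both. The Ndufs8 peak was among the strongest on any member in PBS, with a fold of 10.3 at percentile 99.1 by −log10 q, against 5.42 at percentile 84.8 in lysine, and was chosen for mention after its values were seen.

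Complex I genes covered in 1 library alone by 250 bp or more had weak peaks. Ndufa9, an accessory subunit, had 0 bp in PBS against 278 bp in lysine. Ndufb1, an accessory subunit of the membrane arm, had 284 bp in PBS and 0 bp in lysine. The −log10 q of these peaks was 2.06 and 2.59, at percentiles 13.8 and 22.3 of their lists. Ndufb2 (427 and 206 bp), Ndufb3 (340 and 193 bp) and Ndufa11 (261 and 35 bp, the PBS peak not being counted with equal numbers of peaks) were shorter in lysine, and Ndufa13 (280 and 367 bp) was longer. Ndufa4, named for complex I but now counted to complex IV, had 48 and 258 bp. Of 13 Ndufb genes 7 and 6 had a peak and covered length in lysine was 0.597 of that in PBS. Of 7 core genes of the electron path 3 and 5 had a peak and the ratio was 1.59 (822 and 1307 bp). Much of that excess in lysine lay under a single weak peak. Both sets were put together after the values were seen. The copies Ndufb4b and Ndufb4c, close in name to Ndufb4 (63 and 249 bp), had no peak, and whether reads could be told apart among them is not known here.

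Complex II, succinate dehydrogenase, had the lowest ratio of lysine to PBS. All 4 genes were covered in PBS and 2 in lysine, with 1280 and 308 bp in total, and all 4 were shorter in lysine. Sdhb, the iron-sulphur subunit, went from 575 to 145 bp, of which 313 bp were its internal PBS peak. Sdha, which holds the flavin, had 359 and 163 bp, under a peak at the start it shares with Ccdc127 (fold 6.74 in PBS and 4.88 in lysine). The membrane anchors had peaks in PBS alone, Sdhc with 250 bp and Sdhd with 96 bp. The PBS peak of Sdhd was 1103 bp wide and covered the start of Timm8b, an import factor, as well. With peaks held to −log10 q 5 or more, the Sdha peak of the PBS list was the only one left on this complex.

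Complex III, which passes electrons to cytochrome c, had 5 of 8 genes with a peak in each library, 3 of them the same. The totals were 1081 bp in PBS and 1223 bp in lysine. Uqcrq, a ubiquinone-binding subunit, was marked in both (529 and 626 bp) under a peak of 1055 bp in PBS against 1076 bp in lysine, and it overlaps Gdf9. With peaks held to −log10 q 5 or more Uqcrq had 529 and 0 bp. Uqcrfs1, the Rieske iron-sulphur protein, had 0 and 179 bp, under a lysine peak with fold 6.85 and −log10 q 9.68. It was the strongest lysine peak on a member with no PBS peak beside it. Uqcr11 (0 and 205 bp) was covered in lysine alone, and Uqcrb (245 and 0 bp) and the hinge protein Uqcrh (49 and 0 bp) in PBS alone. The core protein Uqcrc1 had 140 and 92 bp under peaks near the bottom of both lists (−log10 q 1.56 and 1.76).

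Complex IV, cytochrome c oxidase, was the group with the smallest share of genes with a peak when all isoforms were counted. Its 18 genes included 7 with a PBS peak and 4 with a lysine peak, 3 of them the same, with 1588 and 900 bp in total. Several subunits of this complex exist as a widely expressed form and a form restricted to muscle, lung or testis. The 8 restricted isoforms, counting Ndufa4l2, had no PBS peak, and 1 of them had a lysine peak, Cox7a1, the muscle form (73 bp, −log10 q 2.08). Of the 7 widely expressed counterparts, Ndufa4 included, 4 had a PBS peak and 2 a lysine peak. Both sets were listed after the values were seen. Without its restricted isoforms, complex IV had a PBS peak on 7 of 11 genes (63.6%) and a lysine peak on 3 (27.3%). Over all members the shares were 58.8% and 54.5%. Cox5a, a subunit on the matrix side, was the longest covered (452 and 523 bp), followed in lysine by Cox8a (210 and 202 bp) and Cox5b (154 and 102 bp).

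Cox6a1, the widely expressed form of a regulatory subunit, had 128 and 0 bp covered. The PBS peak, 419 bp wide over the start, had fold 7.78 and −log10 q 12.2, at percentile 94.2 of its list. It was the strongest PBS peak on a member with no lysine peak beside it. Cox7a2, the counterpart of Cox7a1, was covered over 443 and 0 bp. That PBS peak was centred at -2829 bp from the start of the RefSeq promoter, inside a longer gene model that overlaps Tmem30a. Cox7c (176 and 0 bp) had a weak PBS peak with a −log10 q of 1.63. Cox4i1, Cox6b1, Cox6c and Cox7b, all widely expressed, had no peak in either library.

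Complex V, the ATP synthase, had the largest share of genes with a peak among groups of more than 4 genes. In each library 14 of 17 genes had one, and 12 of them had it in both libraries. The totals were 4043 bp in PBS and 3251 bp in lysine. Atp5d, the delta subunit of the central stalk, had 1362 bp against 585 bp in lysine. The PBS peak ran from 80141226 to 80142587 on chromosome 10 and its lysine peak from 80141233 to 80141817, so that both began within a few bp of one another and the PBS peak alone went on over the start and the promoter shown above. The narrower lysine peak was the stronger in its list, with a −log10 q of 9.50 against 5.51, and by narrow blocks the difference was -177 bp in place of -777 bp.

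Atp5b, the catalytic beta subunit, and Atp5g1, a gene of the c ring, held the peaks of highest −log10 q among the members (32.5 and 26.9 in PBS, 29.96 and 34.7 in lysine), and are named after their values were seen. The Atp5b peak had a fold of 12.6 in both PBS and lysine, and the Atp5g1 peak 10.6 and 14.2. As most of their width lay before the start, covered length was 187 and 134 bp for Atp5b and 199 and 221 bp for Atp5g1. The c ring is encoded by 3 genes, Atp5g1, Atp5g2 and Atp5g3, that make the same mature protein. Atp5g2 was alike in both libraries (214 and 231 bp), while Atp5g3 had 0 bp in PBS and 470 bp in lysine, under a peak with a fold of 5.29. Atp5c1, the gamma subunit, had 257 and 0 bp, under a PBS peak that also covered the start of Kin. The alpha subunit Atp5a1 had 415 and 404 bp. Atp5j, a subunit of the peripheral stalk, had 626 and 384 bp, under a peak over the start of the overlapping Gabpa, itself a regulator of respiratory genes. With peaks held to −log10 q 5 or more Atp5j had 0 and 384 bp. Atp5mpl (0 and 187 bp) and Atp5k (29 and 139 bp) were longer in lysine. Without members that overlap another gene, the ratio of this complex turned from 0.804 to 1.18.

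**Figure D5:**
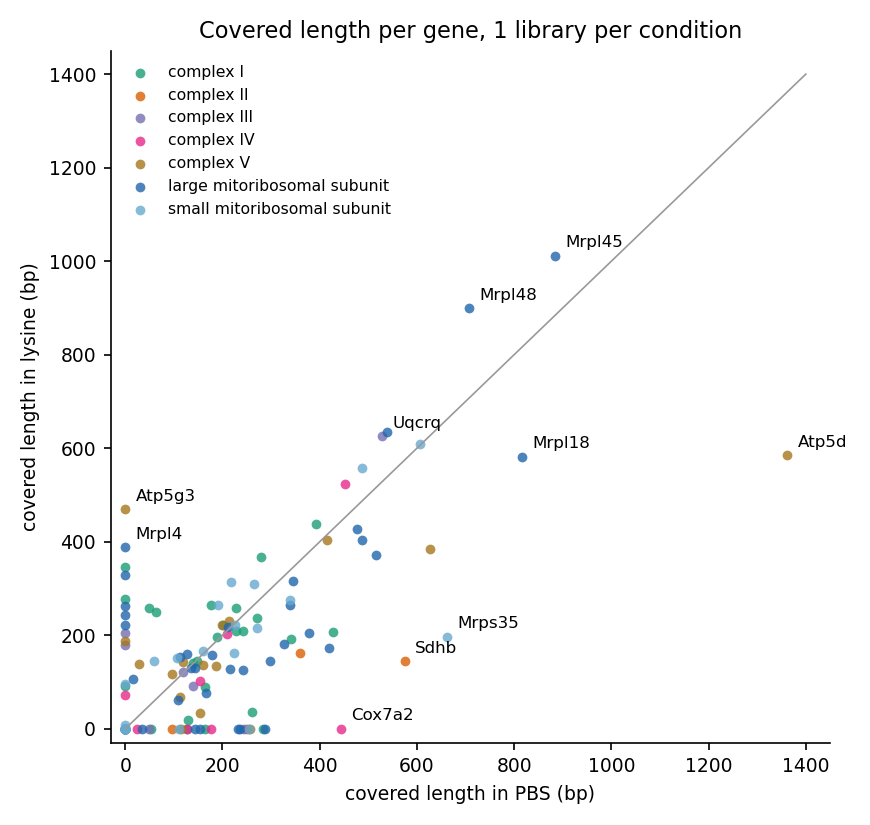
Covered length of the gene body in lysine (y axis, bp) against PBS (x axis, bp) for each of the 165 genes, coloured by group, with the line of equal length in grey. With all peaks counted, as here, Mrpl45 and Mrpl48 lie above the line, Atp5d and Mrpl18 below it, and genes covered in 1 library alone on the axes. The order turned for Mrpl45 by narrow blocks and for Mrpl48 with peaks of −log10 q 5 or more.

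The mitochondrial ribosome was covered much like the respiratory complexes. Peaks lay on 45 of 78 genes in PBS and 44 in lysine (57.7% and 56.4%), against 52 and 46 of 87 respiratory genes (59.8% and 52.9%). Marked genes numbered 7 and 6 of the ribosome and 4 and 3 of the complexes. Covered length in lysine divided by that in PBS was 0.907 for the ribosome and 0.807 for the complexes, compared with 0.796 over all protein-coding genes.

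In the large subunit 30 and 29 of 49 genes were covered, with 9274 and 8511 bp in total. Mrpl45 (chromosome 11, 97314923 to 97329920), which lies at the exit of the peptide tunnel, had 884 bp in PBS, against 1012 bp in lysine, under a single peak in each library with folds of 11 and 7.44. By narrow blocks Mrpl45 had 884 and 794 bp. Mrpl48 had 707 and 899 bp, the peak at the start of Rab6a included. Of its lysine length 377 bp were a weak internal peak (−log10 q 2.14). With peaks held to −log10 q 5 or more Mrpl48 had 707 and 522 bp. Mrpl18, which shares a start with the chaperonin gene Tcp1, had 817 and 582 bp, and Mrpl14, which shares one with Tmem63b, 539 and 635 bp. Mrpl22 had 515 and 372 bp, and Mrpl17 419 and 173 bp. Lysine alone covered 5 genes, Mrpl12 (243 bp), Mrpl15 (223 bp), Mrpl4 (388 bp), Mrpl20 (329 bp) and Mrpl40 (263 bp, at the start it shares with the histone chaperone Hira). PBS alone covered 6, of which Mrpl36 (287 bp, under the peak at the start of Ndufs6), Mrpl11 (237 bp) and Mrpl27 (232 bp) were the longest.

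In the small subunit each library covered 15 of 29 genes, 13 of them the same, with 4177 and 3692 bp. Mrps36 had 607 and 610 bp, and Mrps27 486 and 557 bp. Mrps36 is now known mainly as an adaptor of the 2-oxoglutarate dehydrogenase complex rather than a ribosomal protein. Mrps35 had 661 bp in PBS against 197 bp in lysine, and 527 bp of the PBS length were an internal peak without a lysine partner. Mrps5 (255 and 0 bp) and Mrps7 (110 and 0 bp) had PBS peaks alone. The Mrps7 peak also covered the start of Gga3, while the Mrps5 peak covered no other start, that of Zfp661 lying within 1 kb. Mrps30 (218 and 313 bp), Mrps14 (0 and 95 bp) and Mrps6 (60 and 145 bp) were longer in lysine.

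Between the libraries, covered length of all members came to 26002 bp in PBS and 22337 bp in lysine, a ratio of 0.859. It was shorter in lysine in 65 genes and longer in 47 (58.0% and 42.0% of the 112, against 58.2% and 41.5% of all genes with a peak), and the median difference among the 112 members with a peak was -24.5 bp (quartiles -128 and 71), against -38 bp over all genes with a peak. A difference of at least 250 bp was found in 9 members on the shorter side, 5.45% against 9.76% of all genes, and in 6 on the longer side, 3.64% against 5.40%. Among all genes with a peak, 25.2% were shorter and 14% longer by that margin, against 9 and 6 of the 112 members with one. Median covered length of members with a peak was 216 bp in PBS and 205 bp in lysine, below the margin of 250 bp. Most such members could not differ by 250 bp even if the whole peak were lost or gained. The lower shares therefore do not show that members differed less. With equal numbers of peaks in both lists 8 members were shorter and 9 longer, so that the balance turned. Then 86 members had a PBS peak and 90 a lysine peak (52.1% and 54.5%). Over all genes the order turned too, with 30.4% and 31.4%. With all peaks counted, the 9 shorter members were Atp5d, Mrps35, Cox7a2, Sdhb, Mrpl36, Ndufb1, Atp5c1, Mrps5 and Sdhc. The 6 longer ones included Atp5g3, Mrpl4, Mrpl20, Ndufa9 and Mrpl40. All 6 of the latter had no PBS peak, and of the 9 the genes Atp5d, Mrps35 and Sdhb kept some covered length in lysine. Of these 15, only Atp5d, Cox7a2 and Atp5g3 still differed when both lists were held to −log10 q 5 or more. Other named genes differed by at least 250 bp at that limit, on both sides. Uqcrq (529 and 0 bp), Ndufb2 (427 and 0 bp) and Sdha (359 and 0 bp) were among the shorter. Mrps36 (0 and 610 bp), Cox5a (0 and 523 bp) and Atp5j (0 and 384 bp) were among the longer. PBS peaks on members shared at least 1 bp with the lysine list in 75 of 97 cases (77.3%, against 61.9% of the whole list), and lysine peaks with the PBS list in 73 of 89 (82.0% against 75.3%). With the PBS list cut by −log10 q into 4 equal parts, 29 of 30 such peaks were shared in the strongest part (96.7%, against 92.7% of all peaks there) and 9 of 18 in the weakest (50%, against 33.9%). In the lysine list members were below the list in the strongest part (94.3% against 96.7%) and the next (78.9% against 83.5%). They were above it in the weaker parts (81.2% against 69.1%, and 63.2% against 52.0% in the weakest).

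Starts shared with a neighbour were common. Of the 139 members with a start, 41 (29.5%) had the start of another protein-coding gene within 1 kb upstream on the opposite strand, against 7.34% of other genes. Of these 41, a peak lay within 1 kb of the start in 37 in PBS (90.2%) and 28 in lysine (68.3%). Of the 98 members without such a neighbour 49 had one in PBS (50%) and 52 in lysine (53.1%). Among other genes the shares were 73.5% and 71.4% of 1274 with a neighbour and 25.6% and 24.2% of 16079 without. Peaks in PBS alone stood at 10 of the 41 shared starts and in lysine alone at 1, that of Mrpl40 and Hira (24.4% and 2.44%, against 9.26% and 7.14% of the 1274 other genes with a neighbour). The 10 were those of Ndufb1, Sdhd, Uqcrh, Atp5c1, Mrpl27, Mrpl30, Mrpl57, Mrps27, Mrps5 and Mrps7. With equal numbers of peaks in both lists 32 and 28 of the 41 had a peak. Where a peak covers both starts it cannot be assigned to one gene of the pair. The PBS peaks of Ndufb1 and Mrps5 covered no start of another gene. Some pairs lay within the set: Ndufb5 and Mrpl47 shared a peak of 446 bp in PBS against 425 bp in lysine, and Mrpl46 and Mrps11 one of 336 bp in each.

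Other genes of the pathway were described from lists of known factors. Among 48 assembly factors of the complexes, 33 carried a PBS peak and 32 a lysine peak, 7 and 8 were marked, and 11008 and 10459 bp were covered. The median difference of those with a peak was -13 bp. Of the 38 with a peak in either library, 5 were shorter and 4 longer by at least 250 bp. Among all genes with a peak, 25.2% were shorter and 14% longer by that margin. Surf1, needed to build complex IV, had 0 and 520 bp, Cox20, a chaperone of a complex IV subunit, 452 and 782 bp, and Tmem126b, of complex I assembly, 454 and 124 bp. Of 32 tRNA synthetases and translation factors of the mitochondrion, 20 and 18 had a peak and 9117 and 7565 bp were covered. The median difference of those with a peak was 5 bp. Of the 21 with a peak in either library, 4 were shorter and 1 longer by at least 250 bp. Vars2 and Cars2, the valyl and cysteinyl enzymes, had 916 and 167 bp and 891 and 0 bp, and the phenylalanyl enzyme Fars2 had 1443 and 1796 bp. Of 20 genes that maintain and transcribe mitochondrial DNA, each library covered 12, with 3669 and 3708 bp and a median difference of -27.5 bp, and 0 were shorter and 2 longer by that margin. These were Tfam, which packs and transcribes mitochondrial DNA (0 and 312 bp), and Pnpt1, an RNA-degrading enzyme (0 and 283 bp).

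Peaks were also called on the mitochondrial genome, which is not wrapped on histones, 4 in PBS and 3 in lysine. Their folds lay between 1.5 and 2.26 in PBS and between 1.46 and 1.93 in lysine, against list medians of 4.52 and 4.48. They overlapped 5 and 4 of its 13 protein-coding genes, with 2250 and 2252 bp covered. ND1, a complex I subunit encoded there, had 911 and 957 bp.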

How the data were processed

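Fixed BMDCs given PBS or lysine were the source of the immunoprecipitated and input libraries, per the labels' protocols, and groups follow sample titles. GRCm38, MACS2 2.1.2, Bowtie2 2.3.4.1, ChIPseeker, Picard, Trimmomatic 0.38, FastQC and cutadapt 1.18 appear, per the submitters' processing notes, without roles. Calling thresholds and the part played by the inputs were not given in the sources used here. Peaks were deposited per sample, in the layout of MACS2 broad calls without a header. The deposited fold is a linear ratio to local background, the deposited significance is −log10 p and −log10 q, and the deposited score equals −log10 q multiplied by 10. The authors' gapped lists give narrow blocks inside the same regions. Blocks of 1 bp were left out.

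Gene bodies are those of RefSeq on GRCm38.p6 (24 pseudogenes with matching symbols were left out). Of a gene with several RefSeq promoters, the outermost start was used. Genes that overlap share covered length. Of 233 entries in the lists, 231 matched. The members and lists were chosen with earlier results of these data known. Named genes are all marked members, the 3 most covered and 3 most different members per group and direction, and the 5 longest covered in 1 library alone per direction, 51 in all. No test was made, since there is 1 library per condition. Covered length was checked on simulated intervals (200 trials, 0 differences) and against bedtools 2.31.1 (0 differing genes). Software was pandas 2.3.3, scipy 1.17.1, numpy 2.4.6 and matplotlib 3.10.9 under Python 3.11.15. Alternatives were peaks of −log10 q of at least 2 or 5, equal numbers of peaks, narrow blocks, genes with 1 kb added, members without overlapping genes, and other thresholds. Depth per sample is unknown. The values of 1 gene are not reported here.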

Additional observations from a re-analysis of the deposited data

How the results depend on the processing

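No paired analysis was possible because each condition has 1 library, and for the same reason no library could be left out. The ratio of total covered length, 0.859, was 0.837 for peaks of −log10 q 2 or more, 0.841 for those of 5 or more (below, strong peaks), 0.951 with equal numbers of peaks, 0.884 by narrow blocks, 0.845 with 1 kb added to the genes and 0.886 without members that overlap another gene. Over all protein-coding genes the ratio was 0.796 with all peaks, 0.771 at −log10 q 2 or more and 0.738 with strong peaks. It was 0.950 with equal numbers of peaks, 0.811 by narrow blocks and 0.829 with 1 kb added. With equal numbers of peaks, members (0.951) and all genes (0.950) thus stood level. Strong peaks lay on 51 members in PBS and 48 in lysine. With equal numbers of peaks 86 and 90 members had a peak, and 8 members were shorter and 9 longer by at least 250 bp. With 1 kb added, 41 and 36 members were marked, 32 were shorter and 19 longer by at least 250 bp. Without overlapping members 5 and 4 were marked, and with strong peaks alone there were 7 in PBS. Marked at 250 bp were 38 and 31, and at 1000 bp 1 and 1. A difference of 100 bp was reached by 34 shorter and 16 longer members, and one of 500 bp by 1 and 0. Ratios of single groups turned: complex I to 1.05, the large subunit to 1.07 and the whole mitochondrial ribosome to 1.03 with equal numbers of peaks, complex III to 0.567 with strong peaks alone and 0.927 with 1 kb added, complex V to 1.12 with strong peaks alone and 1.18 without overlapping members, and the small subunit to 2.08 with strong peaks alone. The ratio of complex I fell from 0.977 to 0.815 at −log10 q 2 or more and 0.574 with strong peaks alone, and that of complex III rose from 1.13 to 1.76 with equal numbers of peaks. Complexes II and IV stayed below 1 under the alternatives run on them. The cause was not tested. Direction held in 20 of 51 named genes under each of 5 alternatives, and 24 had equal lengths with strong peaks alone. Without read counts, weak peaks limit what can be said of genes covered in 1 library alone.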

Other observations

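Lists of genes that feed or control the respiratory chain differed in total covered length. Among 15 genes of cytochrome c, the electron transfer flavoproteins and ubiquinone synthesis, 13 carried a PBS peak and 11 a lysine peak. In this list 8 and 4 were marked, and 8281 and 5135 bp were covered. The median difference among those with a peak was -157 bp. Of the 14 with a peak in either library, 5 were shorter and 2 longer by at least 250 bp. Among all genes with a peak, 25.2% were shorter and 14% longer by that margin. Lysine divided by PBS was 0.620, against 0.796 over all genes. Coq5 (921 and 0 bp), Pdss2 (915 and 0 bp) and Pdss1 (1232 and 551 bp), all of ubiquinone synthesis, were among the shorter, and Etfb (265 and 1108 bp), a subunit of the electron transfer flavoprotein, and Coq9 (0 and 502 bp) were the longer ones. Etfdh, which hands those electrons to ubiquinone, had 914 and 143 bp. Of 28 import genes 17 and 16 had a peak, with 5353 and 3211 bp and a median difference of -30 bp, and 3 were shorter and 0 longer by that margin (10.7% of the list shorter). Timm8b, an import chaperone, had 956 and 0 bp under the peak it shares with Sdhd. Of 22 genes of the tricarboxylic acid cycle and pyruvate dehydrogenase 13 and 12 had a peak, with 4548 and 4266 bp and a median difference of -31 bp, 1 shorter and 2 longer. Cs, citrate synthase, had 250 and 846 bp and Pdhb 1089 and 478 bp.

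Among 14 regulators of mitochondrial genes, 10 carried a PBS peak and 7 a lysine peak, with 7313 and 4344 bp and a median difference of -192 bp, against -38 bp over all genes with a peak. The oxidative stress factor Nfe2l2 (3102 and 1556 bp), Sp1 (939 and 0 bp) and Ppargc1b (827 and 0 bp) were shorter in lysine, and Pprc1 (93 and 551 bp) and Yy1 (147 and 403 bp) longer. Gabpb1 had 608 and 647 bp. Nrf1 had 179 and 0 bp, and Ppargc1a had no peak in either library. No test was made of these lists.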
